A study of Mus musculus with 16 samples.

Results

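The genes described are 9 members of the TNF receptor superfamily: Tnfrsf4 (OX40), Tnfrsf18 (GITR), Tnfrsf9, Tnfrsf25 (DR3), Cd27, Tnfrsf1b (TNFR2), Tnfrsf1a (TNFR1), Fas and Tnfrsf26. They were listed by gene symbol, and the list was chosen with earlier results of these data known. All 9 were found among the 31053 genes of the lung and MLN matrices and the 32285 genes of the medLN and MLN matrix. All 9 also passed the filter on low counts in the main fit of every comparison made.

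Receptors of this family bind trimeric ligands of the TNF family, many of which sit in the membrane of another cell. Most members used by T cells recruit TRAF adaptors and activate NF-κB, which lends survival and co-stimulatory signals after contact with antigen. TNFR1, DR3 and Fas carry a death domain in their tail and can also assemble complexes that activate caspases.

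T cells were taken from female 4get mice on the C57BL/6 background, in which eGFP is produced together with Il4 transcripts, at day 10 after infection with the nematode Nippostrongylus brasiliensis (Nb). In the first run CD4+IL-4eGFP+ cells were sorted from the lung and from the mesenteric lymph nodes (MLN) of 2 mice aged 13 weeks. The lung was perfused but still held some cells of the vessels. Lungs were cut up, digested with a dissociation kit and purified on Percoll, whereas for the nodes only mashing is described. Organ and cell preparation thus cannot be told apart between lung and MLN. In the second run IL-4eGFP+ and IL-4eGFP- CD4+ cells came from the lung-draining mediastinal lymph node (medLN) and the MLN of 2 other mice aged 10 weeks, and hashtag antibodies marked node and mouse. Each IL-4eGFP gate of the second run was 1 library, so that gate and library cannot be told apart. All mice carried the reporter and were infected, and no uninfected group was analysed here. Reporter signal marks cells that transcribe Il4 and does not by itself show secretion of the cytokine.

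A total of 4714 lung and MLN cells entered the analysis, with 416 to 2462 cells and 2798232 to 14512767 UMIs per library. The 8 hashtag samples held 16748 cells, 1992 to 2249 in each, with 7546083 to 10636927 UMIs. Median depth per cell was 4971 to 6910 UMIs in the first run and 3165.5 to 3666.5 in the second. Libraries shared at most 1.61% of the barcodes of the smaller library. Levels are given as CPM, the UMIs of a gene per 1000000 UMIs of a sample without its TCR genes. TCR genes were also left out of the fits. Summed marker levels are per 1000000 UMIs of all genes. Fold changes of the main fits used TMM scaling, so they need not equal the ratio of the CPM beside them. Levels come from the 5′ ends of transcripts, so they were not scaled by length and are not compared between genes. The T cell markers Cd3d, Cd3e, Cd3g and Cd4 were found in every sample, with summed levels of 3041 to 4081 CPM. Summed myeloid markers did not exceed 94.4 CPM, and summed B cell markers did not exceed 43.4. Replicates were separate mice, 2 per organ. Between organs, and between nodes within a gate, p-values measure the spread between the 2 mice of each organ. The edgeR fit moderates this spread with that of the other genes. These fits counted both organs of a mouse as separate samples. Fits over both gates, and those of Foxp3 or cycling cells, likewise counted sums from organs of the same 2 mice as separate. Their p-values measure the spread between those sums and not between further mice. The main fits between organs, nodes and gates had no term for the mouse. In such sums fewer cells with a transcript and less RNA per cell cannot be told apart.

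In GRCm38 (mm10) 5 of the 9 genes lie on chromosome 4. These are Tnfrsf1b (chr4:145213463-145246870, minus strand), Tnfrsf9 (chr4:150914562-150946102), Tnfrsf25 (chr4:152115934-152120119), Tnfrsf4 (chr4:156013843-156016612) and Tnfrsf18 (chr4:156026164-156028895), with the last 4 on the plus strand. Tnfrsf4 and Tnfrsf18 are separated by 9551 bases. Cd27 (chr6:125232622-125237010, minus) and Tnfrsf1a (chr6:125349362-125362484, plus) both lie on chromosome 6. Tnfrsf26 (chr7:143607659-143628722, minus) lies beside its paralogs Tnfrsf22 and Tnfrsf23, and Fas is at chr19:34290666-34327772 on the plus strand.

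Promoter windows of 250 bases before the RefSeq start site (GRCm38.p6) were at hand for 8 of the 9 genes, in 10 windows, since Tnfrsf9 and Tnfrsf25 have 2 start sites each. The window of Tnfrsf1b is shown as that of a receptor that rose in lung cells, that of Cd27 as one that fell, and that of Fas because it held an AP-1 match. The other windows are not shown. Capitals mark the AP-1 match, and each window is written 5′ to 3′ on the strand of its gene.
Tnfrsf1b, chr4:145246871-145247120, minus strand: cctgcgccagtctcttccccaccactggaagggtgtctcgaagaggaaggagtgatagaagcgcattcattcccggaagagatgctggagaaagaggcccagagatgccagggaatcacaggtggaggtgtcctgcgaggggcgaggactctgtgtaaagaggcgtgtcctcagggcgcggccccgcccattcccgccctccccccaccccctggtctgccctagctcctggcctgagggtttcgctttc
Cd27, chr6:125237028-125237277, minus strand: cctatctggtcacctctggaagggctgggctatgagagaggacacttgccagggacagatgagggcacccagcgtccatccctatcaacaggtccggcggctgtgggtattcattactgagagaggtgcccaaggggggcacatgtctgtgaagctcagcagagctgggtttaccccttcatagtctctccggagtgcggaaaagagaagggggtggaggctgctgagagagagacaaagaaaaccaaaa
Fas, chr19:34290409-34290658, plus strand: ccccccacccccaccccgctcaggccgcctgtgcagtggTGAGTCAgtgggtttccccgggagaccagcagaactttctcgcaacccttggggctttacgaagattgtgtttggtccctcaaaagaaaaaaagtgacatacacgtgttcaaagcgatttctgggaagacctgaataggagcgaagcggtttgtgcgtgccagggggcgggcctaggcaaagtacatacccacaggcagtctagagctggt

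An NF-κB motif was searched on both strands and was present in 3.90% of all 32851 promoter windows of this length, and in 1 of the 10 windows here. At the downstream Tnfrsf9 start 2 overlapping matches, GGGGATTTCC and GGGATTTCCC, covered bases 43 to 33 before the start. The AP-1 motif TGANTCA was present in 6.75% of all windows, and in 2 of the 10, at bases 15 to 9 before the same Tnfrsf9 start and at bases 211 to 205 before the Fas start. The GATA motif AGATAA was present in 9.99% of all windows and in 0 of the 10. These are matches of letters and not measured binding.

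All 9 receptors differed between lung and MLN IL-4eGFP+ cells, 5 of them higher in lung (Tnfrsf4, Tnfrsf18, Tnfrsf9, Tnfrsf25, Tnfrsf1b) and 4 lower (Cd27, Tnfrsf1a, Fas, Tnfrsf26). Of all 10588 genes tested 31% were called, 17% higher and 14% lower in lung, by edgeR's quasi-likelihood test at an adjusted p of 0.05. Because the 9 were chosen with earlier results known, their count is not that of a neutral list of genes. With total UMIs in place of TMM scaling 1309 genes were higher and 2050 lower, in place of 1803 and 1481, and the median of all genes moved from -0.01 to -0.15 on the log2 scale. Between the IL-4eGFP gates of the nodes all 9 were called as well, 3 higher in IL-4eGFP+ cells (Tnfrsf4, Tnfrsf18, Tnfrsf26) and 6 lower. There the background was high, since 63% of 11035 genes were called, 31.3% higher and 31.8% lower. With total UMIs as scaling 5174 genes were higher and 1996 lower, against 3450 and 3504, and the median of all genes moved from -0.02 to 0.18. Under that scaling Tnfrsf4, Tnfrsf18, Tnfrsf25, Tnfrsf1a and Tnfrsf26 kept their gate calls, and Tnfrsf9, Cd27, Tnfrsf1b and Fas did not.

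The nodes differed far less from each other. In IL-4eGFP+ cells 1 receptor, Cd27, was called between medLN and MLN, and it was lower in medLN. The background was 1.28% of 11263 genes, with 0.675% higher and 0.604% lower. In IL-4eGFP- cells the 1 receptor called was Tnfrsf4, which was higher in medLN, beside 0.178% of 10684 genes (0.15% higher and 0.0281% lower). Total UMIs as scaling gave 18 genes higher and 1 lower there, in place of 16 and 3. The medLN to MLN difference itself differed between the gates for Tnfrsf4, beside 0.156% of 11535 genes (0.0694% higher and 0.0867% lower in the IL-4eGFP+ gate), and total UMIs gave 8 genes higher and 17 lower in place of 8 and 10.

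**Figure D1:**
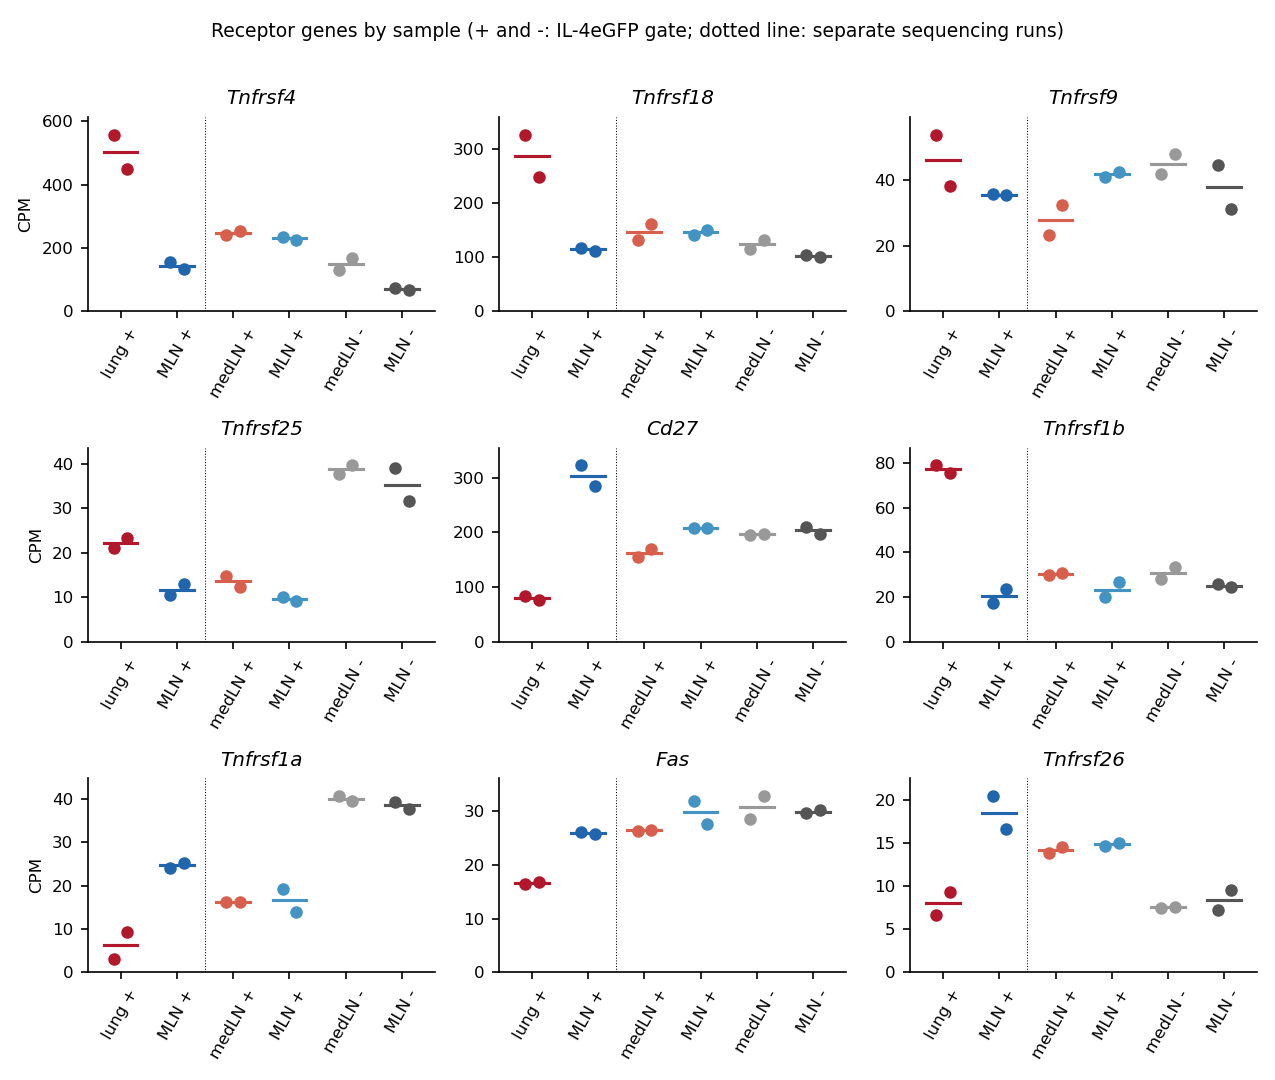
CPM (y axis, from 0) of each receptor gene in the 12 samples (points; horizontal bars are the mean of 2 mice), grouped by organ and IL-4eGFP gate (x axis). The dotted line separates the sequencing runs, and the lung points of Tnfrsf4, Tnfrsf18 and Tnfrsf1b lie above all node points.

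Among whole samples grouped by organ and gate, the co-stimulatory receptors Tnfrsf4 and Tnfrsf18 each had their highest level in the lung. So did Tnfrsf1b and, with overlap between groups, Tnfrsf9. IL-4eGFP- node cells with a Foxp3 UMI, described below, had higher means than lung for each of these genes, with no test. Tnfrsf4 encodes OX40, which activated CD4+ T cells display and which supports their survival and memory. It held 558 and 448 CPM in the lung libraries and 154 and 134 in MLN of the same mice, and the groups did not overlap. This was a 3.86-fold difference (log2 1.95, SE 0.17, adjusted p = 2.78e-05). At 2000 UMIs per cell a Tnfrsf4 UMI was found in 53.1% and 46.8% of lung cells, compared with 14.8% and 13.9% of MLN cells. In the nodes of the second run IL-4eGFP+ cells held 239.7 and 254 CPM in medLN and 233 and 226 in MLN. IL-4eGFP- cells held 131 and 167 in medLN and 73.7 and 67.7 in MLN. All 4 IL-4eGFP+ samples lay above all 4 IL-4eGFP- samples, by 1.99-fold in the fit (log2 0.99, SE 0.15, adjusted p = 8.36e-05). Set side by side with no test, the order fell from lung through medLN and MLN IL-4eGFP+ cells of the second run to medLN IL-4eGFP- cells. The range of the latter overlapped that of MLN cells of the first run, and MLN IL-4eGFP- cells were lowest. MLN IL-4eGFP+ cells held a mean of 144 CPM in the first run and 229 in the second. In such orders, here and below, organ or gate cannot be told apart from run where groups came from separate runs.

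Tnfrsf18 encodes GITR, a co-stimulatory receptor known for its high level on regulatory T cells. Its levels were 328 and 248 CPM in lung and 118 and 111 in MLN, a 2.79-fold difference without overlap (log2 1.48, SE 0.17, adjusted p = 1.95e-04). Of lung cells at 2000 UMIs 40.9% and 38.5% had a UMI of it, compared with 19.8% and 19.4% in MLN. In the nodes the gates were close, with 131 to 161 CPM in the 4 IL-4eGFP+ samples and 99.5 to 131 in the 4 IL-4eGFP- samples. IL-4eGFP+ cells were 1.13-fold higher (log2 0.18, SE 0.07, adjusted p = 0.0422), but leaving out single samples gave log2 values of 0.14 to 0.26 and kept the call in 2 of 8 fits. The order of its groups was led by lung, and the levels of medLN and MLN IL-4eGFP+ cells overlapped.

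Tnfrsf9 encodes an inducible receptor also called CD137, which marks recently stimulated T cells. Lung libraries held 54.0 and 38.4 CPM and MLN libraries 35.7 and 35.5. The 1.48-fold difference (log2 0.57, SE 0.18, adjusted p = 0.0436) was called in 6 of 13 alternatives. It was lost without the first lung library (log2 0.16, adjusted p = 0.514), without MLN 1 (log2 0.57, adjusted p = 0.110) and without MLN 2 (log2 0.54, adjusted p = 0.118), and was kept without the second lung library. It was not called by DESeq2 (adjusted p = 0.137) or without cells holding a Foxp3 UMI (log2 0.50, adjusted p = 0.0739). In the nodes the samples of the gates overlapped, with 23.1 to 42.7 CPM in IL-4eGFP+ and 31.2 to 48.0 in IL-4eGFP- cells. The fit placed IL-4eGFP+ cells lower (log2 -0.46, SE 0.16, adjusted p = 0.0248), with values of 0.04 at 2000 UMIs per cell and -0.03 without Foxp3 cells. Between medLN (23.1 and 32.6) and MLN (40.9 and 42.7) of IL-4eGFP+ cells the log2 value was -0.60 (SE 0.14, adjusted p = 0.106), and with mouse as a block it was called (adjusted p = 0.0481). Of the 6 groups only medLN IL-4eGFP+ cells did not overlap with their neighbour in the order of levels.

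Tnfrsf25 encodes DR3, the receptor of the cytokine TL1A. Its direction differed between the comparisons. Lung libraries, at 21.1 and 23.3 CPM, lay above MLN libraries at 10.4 and 13.02 (log2 1.09, SE 0.18, adjusted p = 0.00171). IL-4eGFP- node cells, at 31.6 to 39.6, lay above all IL-4eGFP+ node cells, at 9.16 to 14.7, by 3.70-fold (log2 -1.89 for IL-4eGFP+ against IL-4eGFP-, SE 0.11, adjusted p = 1.54e-08). Both calls were kept in every alternative run, 13 for the organs and 17 for the gates. At 2000 UMIs per cell 6.34% to 7.95% of IL-4eGFP- cells and 1.97% to 2.84% of IL-4eGFP+ node cells had a UMI of it. The groups ranked from IL-4eGFP- cells of both nodes, which overlapped, through lung to the IL-4eGFP+ node groups.

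Cd27, a receptor of naive and early activated T cells that binds CD70, moved the other way. It held 83.4 and 76.0 CPM in lung and 323 and 285 in MLN, a 3.44-fold lower level in lung (log2 -1.78, SE 0.14, adjusted p = 1.37e-05). A UMI was found in 15.3% and 14.2% of lung cells and in 47.6% and 41.6% of MLN cells at 2000 UMIs. In IL-4eGFP+ node cells medLN, at 154 and 169.7 CPM, was lower than MLN at 209 and 208 (log2 -0.37, SE 0.06, adjusted p = 0.0329). That call was kept in 8 of 13 alternatives. It was lost without cycling cells (log2 -0.28, adjusted p = 0.0741) and also in fits that left out a single sample. Leaving out single samples gave log2 values of -0.44 to -0.31. IL-4eGFP- cells held 196 to 209.9 in both nodes. Between the gates the fit gave a lower level in IL-4eGFP+ cells (log2 -0.32, SE 0.05, adjusted p = 2.66e-04), although the CPM values overlapped. Without cycling cells the same contrast was higher in IL-4eGFP+ cells (log2 0.12, adjusted p = 0.0467), and at 2000 UMIs per cell it was 0.03 (adjusted p = 0.728).

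The receptors of TNF itself moved in opposite directions between lung and MLN. Tnfrsf1b encodes TNFR2, which lacks a death domain and co-stimulates T cells. It reached 79.0 and 75.3 CPM in lung and 17.2 and 23.6 in MLN, a 4.33-fold difference (log2 2.11, SE 0.16, adjusted p = 1.47e-05) that was called in all 13 alternatives. Of lung cells at 2000 UMIs 14.0% in both libraries had a UMI of it, compared with 3.24% and 4.17% of MLN cells. All node samples lay below lung, at 20.0 to 30.6 in IL-4eGFP+ and 24.3 to 33.2 in IL-4eGFP- cells, and the gates overlapped. Their fitted difference was -0.25 (SE 0.10, adjusted p = 0.0391) with all cells and 0.36 (adjusted p = 0.0250) without Foxp3 cells, and it was not called with total UMIs as scaling (-0.05, adjusted p = 0.640).

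Tnfrsf1a encodes TNFR1, the death domain receptor of TNF. It was low in lung, at 3.18 and 9.32 CPM from 27 and 26 UMIs, and higher in MLN at 24.2 and 25.4 (log2 -2.13, SE 0.32, adjusted p = 0.00103). The lung libraries differed from each other by more than the MLN libraries did. Leaving out 1 library at a time gave log2 values of -2.74 to -1.34, all called. IL-4eGFP- node cells held 37.8 to 40.7 and IL-4eGFP+ node cells 14.0 to 19.3, which did not overlap (log2 -1.46, SE 0.09, adjusted p = 2.14e-08, called in all 17 alternatives). Side by side with no test, Tnfrsf1a ranked highest in IL-4eGFP- cells and lowest in lung. MLN IL-4eGFP+ cells lay between them and did not overlap between the runs, at a mean of 24.8 CPM in the first and 16.6 in the second. Those of the second run overlapped with medLN IL-4eGFP+ cells.

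Fas, the receptor of Fas ligand that triggers death of activated lymphocytes, changed least between the organs. Its levels were 16.4 and 16.9 CPM in lung and 26.2 and 25.8 in MLN (log2 -0.50, SE 0.15, adjusted p = 0.0308). DESeq2 did not call it (adjusted p = 0.258), and leaving out any library but the second of lung lost the call. In the nodes the gates overlapped at 26.3 to 32.0 and 28.6 to 32.9. The gate difference was -0.31 (SE 0.07, adjusted p = 0.00322) and 0.07 without cycling cells (adjusted p = 0.470).

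Tnfrsf26 was lower in lung, at 6.72 and 9.32 CPM, than in MLN, at 20.5 and 16.6 (log2 -1.16, SE 0.22, adjusted p = 0.00334). IL-4eGFP+ node cells, at 13.8 to 15.01, lay above IL-4eGFP- cells, at 7.21 to 9.55 (log2 0.67, SE 0.11, adjusted p = 1.60e-04), and the call was kept in all 17 alternatives. Reads of Tnfrsf26 may be shared with its neighbouring paralogs, whose own gate differences had opposite signs. Tnfrsf23, a decoy receptor of TRAIL, was higher in IL-4eGFP+ cells (log2 1.44, adjusted p = 7.71e-05). Tnfrsf22 was lower (log2 -0.29, adjusted p = 0.0396), but its call was kept in only 6 of 17 alternatives. How reads were divided among the 3 genes was not tested.

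**Figure D2:**
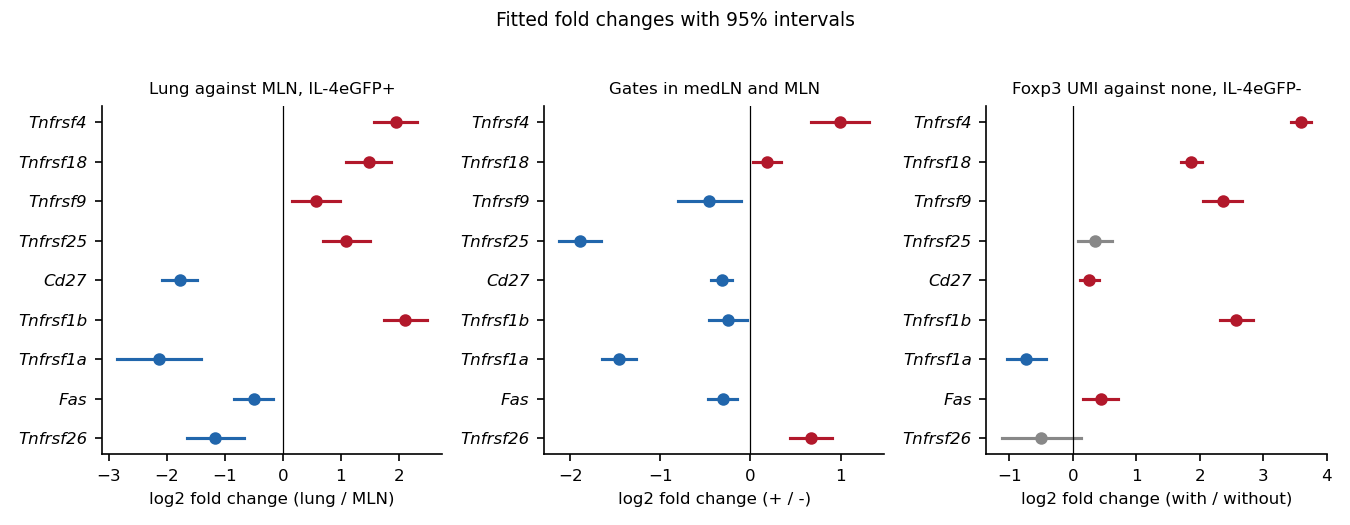
Fitted log2 fold changes (x axes) of the 9 receptor genes with 95% intervals (lines) for lung against MLN, for IL-4eGFP+ against IL-4eGFP- node cells, and for IL-4eGFP- cells with against without a Foxp3 UMI. Red and blue mark genes called higher and lower, and grey marks genes not called; Tnfrsf4 was higher in all 3, at 1.95, 0.99 and 3.60.

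Marker levels moved with these groups. Regulatory T cell markers (Foxp3, Ikzf2, Il2ra, Ctla4) summed to 555 and 538 CPM in lung and to 177 and 147 in MLN. Most of the lung sum was Ctla4, at a mean of 448 CPM in lung and 85.5 in MLN. Cells with a Foxp3 UMI made up 0.28% to 0.72% of these libraries. Th2 markers (Il4, Gata3, Il1rl1) summed to 1732 and 1419 in lung and to 615 and 555 in MLN. Myeloid markers (Lyz2, C1qa, C1qb, Csf1r, Itgax) summed to 0.118 and 0 CPM in lung and to 20.5 and 31.5 in MLN, with 4 of 5 found in both MLN libraries. Exocrine pancreas markers (Ctrb1, Prss2, Cela2a, Pnlip) summed to 75.7 CPM in MLN 2, compared with 2.20 in MLN 1 and 0 and 0.357 in lung. The part of these markers in the organ differences was not tested, and without MLN 2 the organ calls of Tnfrsf4, Tnfrsf18, Tnfrsf25, Cd27, Tnfrsf1b, Tnfrsf1a and Tnfrsf26 were kept while those of Tnfrsf9 and Fas were lost. Without Foxp3 cells 8 of the 9 organ calls were kept, all but that of Tnfrsf9, and without cycling cells all 9 were kept. In the nodes cells with a Foxp3 UMI made up 1.02% to 3.24% of IL-4eGFP+ samples and 8.40% to 12.3% of IL-4eGFP- samples. Cycling cells, defined by UMIs of at least 2 of Mki67, Top2a, Ccna2, Cdk1 and Birc5, made up 9.99% to 13.1% and 1.16% to 1.87%. Without Foxp3 cells the gate difference of Tnfrsf4 was 2.17 in place of 0.99 and that of Tnfrsf18 was 0.53 in place of 0.18. The plot of the gate difference under several choices of cells shows that the calls of Tnfrsf4, Tnfrsf18, Tnfrsf25, Tnfrsf1a and Tnfrsf26 held under these choices, whereas those of Tnfrsf9, Cd27, Tnfrsf1b and Fas were lost or turned under at least 1 of them.

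**Figure D3:**
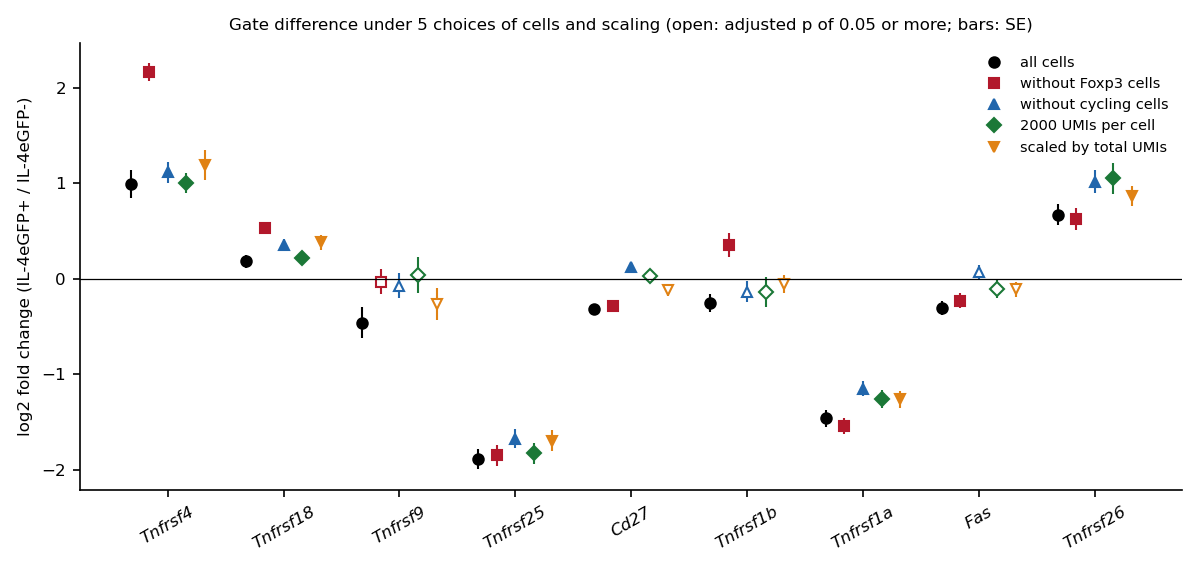
Log2 fold change of IL-4eGFP+ against IL-4eGFP- node cells (y axis) for each receptor gene (x axis) with all cells, without cells holding a Foxp3 UMI, without cycling cells, at 2000 UMIs per cell and with total UMIs as scaling. Bars are standard errors and open symbols have an adjusted p of 0.05 or more; Tnfrsf1b reads -0.25 with all cells and 0.36 without Foxp3 cells.

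Foxp3 is the transcription factor that defines regulatory T cells, and OX40, GITR and TNFR2 are known surface molecules of these cells. IL-4eGFP- cells with a Foxp3 UMI were therefore compared with the other cells of the same 4 samples. A cell without a Foxp3 UMI can still transcribe Foxp3, so the other cells and the refits without Foxp3 cells may hold some such cells. Of the 9 receptors 6 were higher in Foxp3 cells (Tnfrsf4, Tnfrsf18, Tnfrsf9, Tnfrsf1b, Cd27, Fas), Tnfrsf1a was lower, and Tnfrsf25 and Tnfrsf26 were not called. Of 9819 genes 24.4% were called, 13.7% higher and 10.7% lower. With total UMIs as scaling 2065 were higher and 640 lower, in place of 1349 and 1050, and the median of all genes moved from -0.01 to 0.13.

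The largest value was that of Tnfrsf4. Its Foxp3 cells held 709 and 838 CPM in medLN and 471 and 389 in MLN, and the other cells 50.2 and 59.8 in medLN and 37.3 and 30.8 in MLN. This was a 12.1-fold difference (log2 3.60, SE 0.08, adjusted p = 4.63e-14). Tnfrsf1b was 5.97-fold higher, at 87.7 to 124 CPM against 15.4 to 18.8 (log2 2.58, SE 0.12, adjusted p = 7.63e-10). Tnfrsf9 was 5.15-fold higher, at 104 to 206 against 22.8 to 34.9, and Tnfrsf18 was 3.65-fold higher, at 288 to 391 against 77.9 to 90.0. Groups did not overlap for any of these 4 genes, nor for Tnfrsf25, which was not called (40.7 to 60.8 against 30.5 to 37.6). The share of all tested genes without overlap was not counted, so lack of overlap does not set these genes apart. Tnfrsf1a was 1.66-fold lower, at 25.2 to 30.9 against 38.6 to 42.6 (log2 -0.73, SE 0.14, adjusted p = 0.00117). Cd27 and Fas differed little, with log2 values of 0.26 and 0.44, and DESeq2 called neither (adjusted p = 0.0594 and 0.150). Tnfrsf25 was at 0.35 (adjusted p = 0.0573) and at 0.77 (adjusted p = 3.26e-04) when each cell was thinned to 2000 UMIs.

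The medLN to MLN difference of Tnfrsf4 in IL-4eGFP- cells was 2.02-fold (log2 1.02, SE 0.10, adjusted p = 0.00128), with 131 and 167 CPM in medLN above 73.7 and 67.7 in MLN. Without Foxp3 cells it was 0.65 (adjusted p = 0.100). Foxp3 cells made up 10.2% and 12.3% of the medLN samples and 8.40% and 10.7% of the MLN samples. Cells without a Foxp3 UMI held 50.2 and 59.8 CPM in medLN and 37.3 and 30.8 in MLN, as given above, and the Foxp3 cells likewise held more in both medLN samples than in both MLN samples. In the IL-4eGFP+ gate medLN and MLN differed by a log2 value of 0.09 (SE 0.05, adjusted p = 0.555, 95% interval -0.03 to 0.22). Foxp3 cells of that gate made up 1.02% and 1.29% of the medLN samples and 2.71% and 3.24% of the MLN samples. The difference between the gates was -0.91 (SE 0.13, adjusted p = 0.0254). It was -0.63 (adjusted p = 0.170) at 2000 UMIs per cell and -0.51 (adjusted p = 0.279) without Foxp3 cells, and leaving out single samples kept the call in 3 of 8 fits. With the organ and mouse as a block the adjusted p was 9.89e-04.

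**Figure D4:**
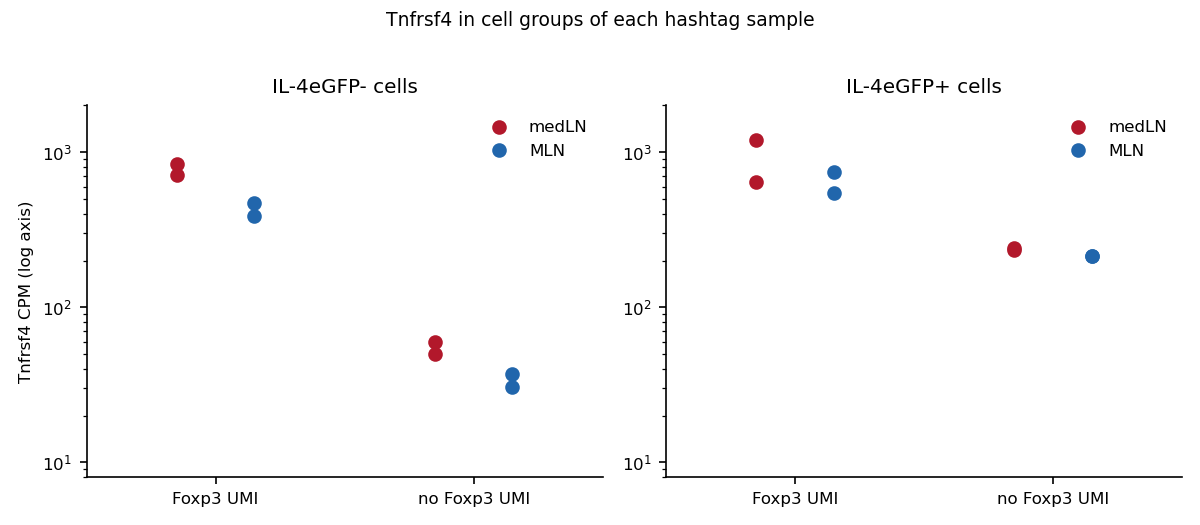
Tnfrsf4 CPM (y axis, log scale) in cells with and without a Foxp3 UMI (x axis), for each medLN and MLN sample (points) of both IL-4eGFP gates. In IL-4eGFP- cells the medLN points lie above the MLN points in both groups, with 709 and 838 against 471 and 389 and with 50.2 and 59.8 against 37.3 and 30.8.

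Within the lung and MLN libraries cells were also split by their own transcripts. In cycling cells 7 of the 9 receptors were lower than in the other cells of the same library, and Tnfrsf4 and Tnfrsf25 were not called. Among 9017 genes 40.5% were called, 20% higher and 20.5% lower, and the median log2 value was -0.75 over the receptors and -0.08 over all genes. Cd27 held 147 and 114 CPM in cycling MLN cells and 349.6 and 306 in the others, and 52.3 and 47.0 against 89.7 and 82.5 in lung (log2 -1.06, SE 0.13, adjusted p = 6.95e-07). Fas was at 9.18 to 13.7 in the 4 cycling groups and 17.6 to 28.7 in the others (log2 -1.16, SE 0.23, adjusted p = 3.55e-04). Tnfrsf1a (-1.21), Tnfrsf9 (-0.75), Tnfrsf26 (-0.80), Tnfrsf18 (-0.48) and Tnfrsf1b (-0.41) were lower too. The call of Tnfrsf26 was kept in only 4 of 9 alternatives and that of Tnfrsf1b in only 3 of 10. The cycling cells held a median of 10975.5 to 14883 UMIs per library, and the other cells 4876 to 6662. At 2000 UMIs per cell 6 of the receptors could be fitted, and Tnfrsf1a, Tnfrsf25 and Tnfrsf26 could not. Cd27 (-0.92, adjusted p = 4.29e-04) and Tnfrsf9 (-1.28, adjusted p = 0.0310) kept their calls there, and Fas (-0.63, adjusted p = 0.462), Tnfrsf18 (-0.47, adjusted p = 0.0675) and Tnfrsf1b (-0.63, adjusted p = 0.227) did not.

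In the lung 351 and 88 cells held a UMI of Il5 or Il13, the cytokines of type 2 effector cells. Tnfrsf9 was higher in them, at 71.1 and 62.4 CPM against 44.6 and 30.2 in the other lung cells (log2 0.75, SE 0.14, adjusted p = 3.65e-06). Cd27 was lower, at 50.9 and 49.6 against 101 and 84.9 (log2 -0.95, SE 0.13, adjusted p = 9.46e-11), and so was Tnfrsf26, at 1.33 and 4.25 against 9.68 and 11.0 (log2 -2.33, SE 0.51, adjusted p = 1.68e-04). The value of Tnfrsf26 rests on few counts, with 57 and 26 UMIs in all cells of the lung libraries. Its call was kept in 3 of 5 alternatives. Of 9307 genes 9.62% were called, 4.66% higher and 4.95% lower. This fit rested on 4 sums with 1 residual degree of freedom. Its intervals had the width of normal intervals, so its p-values rested almost wholly on a spread pooled over genes. DESeq2 called none of the 3 genes (adjusted p = 0.666, 0.179 and 0.982). Without library as the replicate block none of them was called either (adjusted p = 0.279, 0.0970 and 0.132), and 42 genes were called in all, in place of 895. Tnfrsf4 (0.15) and Tnfrsf18 (0.13) were not called, with 95% intervals of 0.00068 to 0.30 and -0.05 to 0.30.

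**Figure D5:**
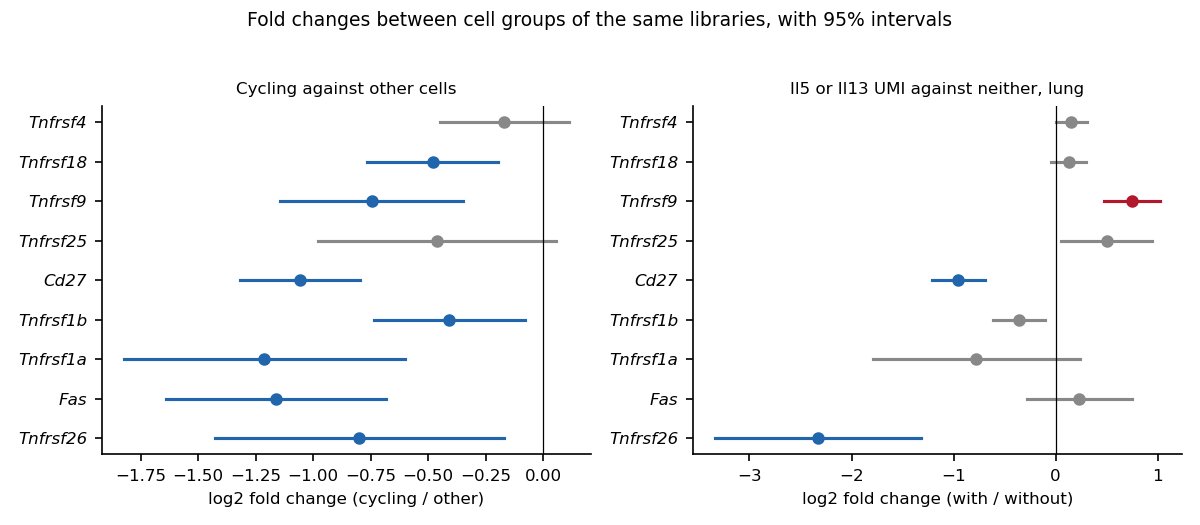
Log2 fold changes (x axes) with 95% intervals of the 9 receptor genes between cells of the same libraries, for cycling against other cells and for lung cells with against without Il5 or Il13. Red and blue mark genes called higher and lower, grey genes not called; Tnfrsf9 reads -0.75 and 0.75.

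At equal depth of 2000 UMIs lung cells held a mean of 1.35 of the 9 receptors (SD 0.06, n = 2) and MLN cells of the first run 1.04 (SD 0.04). IL-4eGFP+ cells held 1.05 in medLN and 1.08 in MLN, and IL-4eGFP- cells 0.93 and 0.86. At least 1 receptor was found in 78.9% of lung cells (SD 0.36) and in 57.8% (SD 0.88) to 69.8% (SD 2.83) of the node groups. No cell type that should lack these genes was at hand, so the share given by free RNA was not measured.

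Pairs of receptors were counted in the same cells. At 2000 UMIs per cell 52 of 7137 IL-4eGFP- cells without a Foxp3 UMI held both Tnfrsf4 and Tnfrsf9, where the product of the separate shares gives 8.62 cells. In Foxp3 cells the same pair was found in 104 of 744 cells, beside a product of 59.2. The ratio of the found to the product was 6.03 and 1.76. Tnfrsf4 and Tnfrsf18 gave 128 cells beside 51.5 without Foxp3, and 189 beside 147 with it. In lung the ratio of Tnfrsf4 and Tnfrsf9 was 1.29 and 1.53. These ratios are given with no test, and cells of a sample are not replicates. Such a ratio has an upper limit, which falls as the share of the commoner gene rises. Ratios of groups with unlike shares, such as Foxp3 and other cells, thus cannot be compared as degrees of overlap. The group without a Foxp3 UMI may still hold cells that transcribe Foxp3, and their part in its ratios was not tested.

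Of 18 further receptors of the family 9 could be tested between lung and MLN, and 3 were higher and 2 lower. Tnfrsf11a, which encodes RANK, was higher (log2 3.40, adjusted p = 0.00117), although on 54 UMIs in lung and 9 in MLN. Tnfrsf10b, the mouse receptor of TRAIL, was higher at 14.3 and 20.1 CPM against 2.22 and 3.37 (log2 2.82, adjusted p = 7.99e-05), and Tnfrsf12a was higher with a log2 value of 1.66. Tnfrsf14, the receptor HVEM, fell from 17.2 and 12.8 in MLN to 3.65 and 3.94 in lung (log2 -1.88, adjusted p = 6.72e-04), and Tnfrsf13b was lower (-1.04). The background for these counts is the 31% given above.

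Of 17 ligands 11 were tested, with 6 higher and 3 lower in lung, beside 17% and 14% of all genes tested. Fasl, the ligand of Fas, held 50.8 and 64.9 CPM in lung and 10.6 and 9.88 in MLN (log2 2.59, adjusted p = 2.63e-06), while Fas itself was lower in lung. Tnfsf9, the ligand of the Tnfrsf9 receptor, was higher (1.54), as was Tnfsf10, which encodes TRAIL (1.43). Tnfsf13b (-1.08), Tnfsf14 (-0.87) and Ltb (-0.62) were lower. The value of Tnfsf13b rests on 28 UMIs in lung and 116 in MLN, and its call was kept in 7 of 12 alternatives. Among 16 adaptors and regulators 8 were higher and 1 was lower, beside the same shares of all genes. Tnfaip3, which encodes the NF-κB inhibitor A20, was at 741 and 726 CPM in lung and at 35.6 and 25.4 in MLN (log2 4.68, adjusted p = 4.36e-07). Traf1 (1.75) and Birc3 (1.39), both known targets and partners of this pathway, were higher, and Traf5 was lower (-1.11).

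Between the gates 9 further receptors were tested, with 3 higher and 3 lower in IL-4eGFP+ cells, next to the background of 63%. Tnfrsf8, which encodes CD30, was higher (log2 2.07, adjusted p = 4.08e-04), and Relt was lower (-1.36, adjusted p = 4.60e-06). Of 11 ligands 7 were higher and 2 lower. Tnfsf11, which encodes RANK ligand, was at 87.8 to 114 CPM in IL-4eGFP+ and 8.78 to 14.2 in IL-4eGFP- samples (log2 2.98, adjusted p = 2.58e-10). Tnfsf13b (3.38) and Tnfsf14 (2.91) were higher as well, and Lta (-0.69) and Ltb (-0.53) were lower. Of 16 adaptors and regulators 2 were higher, Siva1 (1.13) and Tradd (0.18), and 6 were lower, led by Traf4 (-1.26), Birc3 (-0.42) and Casp8 (-0.40). The call of Tradd was kept in 10 of 17 alternatives. Siva1 was called in all 17, with log2 values of 0.26 to 1.33. Between medLN and MLN edgeR called 0 of 39 genes of these 3 lists in IL-4eGFP+ cells, where 5 had an unadjusted p under 0.05, and 0 of 34 in IL-4eGFP- cells, where 4 did; DESeq2 also called 0 in both. In IL-4eGFP- cells with a Foxp3 UMI 1 of 5 further receptors, 5 of 10 ligands and 2 of 16 adaptors were higher and 2 ligands were lower, beside the background of 24.4%.

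Across the 12 sample sums the genes whose pattern was most like that of a receptor were found by Pearson r of log2(CPM + 1) over 2962 genes with a mean of at least 50. Tnfrsf4 was most like Ahnak (r = 0.960), Bhlhe40 (0.953) and S100a6 (0.948), and Tnfrsf18 most like Isy1 (0.985), Nedd9 (0.980) and Ctla4 (0.974). Tnfrsf1a had Txnip (0.983) as its nearest gene, Tnfrsf25 had Rabac1 (0.967), and Cd27 had Ubac2 (0.969) with Traf5 (0.956) in rank 3. Fas was most like Psme2 (0.963) and Tnfrsf26 most like Psmc1 (0.970). The value of Tnfrsf9 was lower, with Churc1 at 0.726. The 12 sums share runs, libraries and mice, so these values describe the samples only.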

How the data were processed

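Single cells were processed with the 10x 5′ kit. The deposited values were raw UMI counts per gene and barcode, which the authors made with Cell Ranger 3.0.1 on mm10 for the lung and MLN libraries and Cell Ranger 6.1.2 for the node libraries, for which no genome build is given in the sources at hand. The submitters' processing notes also name Cell Ranger 2.1.1. No column of the authors' own comparisons was used. Deposited TCR contig tables (UMI counts per contig) served only as a filter. Per the labels 2 mice gave each organ.

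Cells with more than 500 UMIs and 500 genes, under 7% mitochondrial UMIs and a novelty above 0.8 were kept, and in lung and MLN those with productive TCR alpha and beta contigs. Hashtags were called with HTODemux (Seurat 5.3.0, quantile 0.99), which removed 1256 and 1280 doublets and 52 and 70 negatives. No other doublet caller was run. The gate of each node barcode was read from the library number at its end. UMI counts were summed per sample and tested with edgeR 4.0.16 (filterByExpr, TMM, quasi-likelihood test, Benjamini-Hochberg over all genes tested, threshold 0.05) in R 4.3.3. Standard errors were taken from the fold change and F statistic. DESeq2 1.42.0, no filter, other scalings, thinning to 2000 UMIs per cell, a replicate block and left-out samples were alternatives, and leaving out Foxp3 or cycling cells and total-UMI scaling were added after seeing the data. Shares have exact Clopper-Pearson intervals for counting error only.

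The 9 members, the lists of 18 other receptors, 17 ligands and 16 adaptors and the tests were chosen with earlier results of these data known. All members are named, and of each list up to 3 genes per direction with the largest change. For the members the genes with the highest Pearson r are described. A planned comparison of cell groups, a marker list and some genes are not reported here. Mouse numbers pair samples because the organs of 1 number came from the same animal (correlations of deviations from the group mean 0.0398 for lung and MLN, 0.235 and 0.117 for the nodes).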

Additional observations from a re-analysis of the deposited data

Results flagged for a closer look

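In 18 groups of 4 samples the highest and lowest values were compared with the others, and chance marks about 1 in 20 such groups. In IL-4eGFP- node cells Tnfrsf26 was at 9.55 CPM in MLN of mouse 2, far from the other 3 samples (7.21 to 7.58). Cd27 was at 209.9 CPM in MLN of mouse 1 of the same gate, with 196 to 198 in the other 3. The medLN to MLN difference of Tnfrsf4 differed between the gates by -0.91 on the log2 scale (adjusted p = 0.0254), as described above with the alternatives in which it was not called.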

How the results depend on the processing

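The refits gave 895 values, counted once per receptor and refit. Of these 770 kept direction and side of the threshold, 87 lost the call, 8 gained one and 30 changed sign. Counts of called genes that differed from the main value by over 1.5 times are given below, and for left-out samples the whole range is given. The cause was not tested. DESeq2 gave 1833 genes for lung against MLN, 37 for the difference between the gates and 94 for Il5 or Il13 cells. Testing all genes without a filter gave 47 and 2 for the nodes (IL-4eGFP+ and IL-4eGFP-) and 68 for the difference between the gates. Thinning gave 2133 for the organs, 12 for IL-4eGFP- nodes, 1098 for cycling cells and 329 for Il5 or Il13 cells. Leaving out Foxp3 cells gave 6 for IL-4eGFP- nodes and 10 for the difference between the gates, and leaving out cycling cells gave 11 for IL-4eGFP- nodes. With the replicate block (mouse, or organ and mouse) there were 65 genes for IL-4eGFP- nodes and 81 for the difference between the gates. Without the replicate block there were 1851 for cycling cells and 42 for Il5 or Il13 cells. Leaving out single samples gave 1907 to 3678 genes for the organs, 13 to 191 and 98 to 194 for IL-4eGFP+ and IL-4eGFP- nodes and 6 to 24 for the difference between the gates. These refits were not run for Il5 or Il13 cells, since 1 library would remain. Shares of cells with any of the 9 receptors were 78.9%, 69.8%, 68.6%, 68.9%, 59.4% and 57.8% at 2000 UMIs for lung, MLN, medLN and MLN IL-4eGFP+, and medLN and MLN IL-4eGFP- cells, in place of 95.8%, 92.6%, 83.1%, 85.1%, 75.6% and 75.0%. The following values changed sign. For IL-4eGFP+ nodes, Tnfrsf18 was 0.0020 with total UMIs and 0.038 without Foxp3 cells, and Tnfrsf26 was 0.13 when thinned. For IL-4eGFP- nodes, Tnfrsf1a was -0.0013 without a filter, Tnfrsf1b -0.033 and Tnfrsf9 -0.25 without Foxp3 cells, and Fas 0.036 with total UMIs, 0.032 when thinned and 0.017 without cycling cells. Between the gates, Tnfrsf1b was 0.36 without Foxp3 cells, Tnfrsf9 0.039 and Cd27 0.030 when thinned, and Cd27 0.12 and Fas 0.069 without cycling cells. For the difference between the gates Tnfrsf18 was 0.014 without Foxp3 cells. Leaving out single samples also turned signs. The ranges for IL-4eGFP+ nodes were -0.25 to 0.20 (Tnfrsf1a) and -0.16 to 0.13 (Tnfrsf18). For IL-4eGFP- nodes they were -0.023 to 0.022 (Tnfrsf1a), -0.036 to 0.45 (Tnfrsf9), -0.052 to 0.22 (Tnfrsf25), -0.41 to 0.027 (Tnfrsf26) and -0.12 to 0.078 (Fas). For the difference between the gates they were -0.24 to 0.20 (Tnfrsf1a), -0.073 to 0.37 (Tnfrsf1b) and -0.12 to 0.34 (Tnfrsf26). The range for Tnfrsf4 in cycling cells was -0.36 to 0.037. In lung Tnfrsf1a rests on 27 and 26 UMIs.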
